A study of Fukomys damarensis and Heterocephalus glaber and Mus musculus with 160 samples.

Results

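Regions of the Damaraland mole-rat (Fukomys damarensis) genome bound in liver by CEBPA, FOXA1, HNF4A and RXRA together numbered 6103 of 205365, or 2.97% of all regions bound by any of the 4 factors. They were selected on the deposited peak lists of CEBPA, FOXA1 and RXRA from animals DMR1 and DMR4 and of HNF4A from DMR4. All peaks with a fold enrichment below 1000 were merged wherever they shared at least 1 base. A region was kept when it held a peak of each factor in at least 1 animal. The other regions held 3 factors (13194), 2 factors (24884) or 1 factor (161184), and they served as the contrast. Fold enrichment is the linear ratio of signal over background that the authors' peak caller gave each peak.

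The series compared gene regulatory regions of mole-rats, guinea pig and mouse by chromatin immunoprecipitation and sequencing (ChIP-seq), in which an antibody recovers crosslinked DNA that carries a given protein or histone mark. The animals used here were wild-type adult Damaraland mole-rats, and the labels name no experimental treatment. DMR1 and DMR4 were males of an estimated 48 months, DMR2 and DMR3 males of an estimated 36 months, DMR6 a female of an estimated 48 months and DMR11 a male of an estimated 48 months. Liver H3K27ac and H3K4me1 lists came from DMR1, DMR2, DMR3, DMR4 and DMR6, liver H3K4me3 lists from DMR1 and DMR4, and heart lists of all 3 marks from DMR1, DMR2, DMR3, DMR4 and DMR11. A liver HNF6 list came from DMR1 and a heart TBX5 list from DMR6. Both tissues are mixtures of cell types, so a peak seen in few cells and a weak peak in all cells cannot be told apart.

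CEBPA is a basic leucine zipper factor, FOXA1 a forkhead factor that can bind closed chromatin, HNF4A a nuclear receptor central to hepatocyte identity, and RXRA the nuclear receptor that pairs with many other receptors of lipid and bile acid metabolism. Regions where several such factors bind are typical of liver enhancers and promoters. H3K27ac lies on active enhancers and promoters, H3K4me1 on enhancers whether active or not, and H3K4me3 on active promoters. HNF6 is another liver factor, and TBX5 is a T-box factor of heart muscle.

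The 4-factor regions were wider than the others, with a median of 975 bases against 789, 575 and 280 bases for 3, 2 and 1 factors, as merging more peaks makes them. The median of the highest factor fold in a region was 22.1 for 4-factor and 15.4 for 3-factor regions. These values chose the regions and are a description. The fold limit set aside 21 peaks in 7 regions and removed 3 members, since 6106 regions held all 4 factors with no limit. The highest fold inside the limit was 911 and the lowest outside it 1006. In all, 123 members held a peak of fold 100 or more.

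The share of each list that lay in members differed, as did the list lengths. Members took 25.7% of the 19398 FOXA1 peaks of DMR4 and 18.02% of the 27773 FOXA1 peaks of DMR1. They took 8.44% to 12.04% of the other 5 lists, which were longer, at 40759 to 75849 peaks. In number, 4984 and 5006 FOXA1 peaks lay in members, against 4017 to 6534 of the other lists. Of the members, 1874 (30.7%) had a peak in all 7 lists, 1956 in 6 lists, 1598 in 5 lists and 675 in 4 lists. All 4 factors were present within DMR4 alone in 4470 members (73.2%). CEBPA was found in both animals in 57.4% of members, FOXA1 in 56.3% and RXRA in 68.6%. CEBPA was found in DMR4 only in 38.4% and in DMR1 only in 4.18%, and the DMR4 list was the longer of both, with 75849 peaks against 41372. Without the CEBPA list of DMR4 the rule gave 3695 regions. Where both animals had a peak, Spearman correlations of their folds across members were 0.53 for CEBPA (n = 3506), 0.65 for FOXA1 (n = 3438) and 0.53 for RXRA (n = 4188). These regions are not independent replicates.

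The 7 factor lists chose the members, so the ranks of their peaks are a description. Where a list had more than 1 peak in a region, the strongest was taken, and wider regions can hold more peaks. The strongest peaks of members were high in their lists. Their median percentile by fold, counted from the lowest peak of the list, lay between 71.5 for FOXA1 in DMR4 and 83.7 for RXRA in DMR1. For 1-factor regions the same medians ran from 29.9 (RXRA in DMR4) to 39.6 (CEBPA in DMR1), and for 3-factor regions from 66.1 (FOXA1 in DMR4) to 78.9 (HNF4A in DMR4). The median fold of CEBPA in members was 6.15 in DMR1 and 13.5 in DMR4, and that of RXRA was 6.62 and 13.4. FOXA1 differed little between the animals, at 6.52 and 6.54, and HNF4A in DMR4 had a median of 7.11.

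H3K27ac marked most members in every liver and a minority in every heart. A region was called marked when a peak covered at least 50% of the shorter of both intervals. In liver, 68.5% of members were marked in DMR1, 70.4% in DMR2, 63.1% in DMR3, 68.5% in DMR4 and 66.9% in DMR6. In heart, 12.1% were marked in DMR1, 26.2% in DMR2, 22.2% in DMR3, 25.3% in DMR4 and 21.04% in DMR11. The lowest liver lay far above the highest heart, so the tissues did not overlap. The means were 67.5% ± 2.74 (SD, n = 5) and 21.4% ± 5.61 (SD, n = 5), a difference of 46.1 percentage points (exact permutation test, two-sided, p = 0.00794, Benjamini-Hochberg adjusted over the 3 marks 0.0119). In 3-factor regions the means were 67.1% in liver and 24.8% in heart, so a liver excess was not particular to members.

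The tissue difference of H3K27ac was also present in animals and library series taken separately. In the 4 animals with both tissues it was 41.0 to 56.4 points, higher in liver in 4 of 4. The paired exact sign-flip test over these 4 animals gave p = 0.125, the smallest it can give, and an adjusted p of 0.188. Within the libraries numbered do in the labels the difference was 43.4 points (3 liver, 2 heart), and within those numbered vl it was 46.6 points (2 liver, 3 heart). Rebuilding the regions from 200-base windows around the factor summits gave 4764 regions with all 4 factors and a difference of 25.9 points. Counting the mark in members only under the summit of the strongest factor peak gave 28.9 points. The call stood in both (exact permutation test, adjusted p = 0.0119).

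H3K4me1 also marked more members in liver. Liver values were 44.2% in DMR1, 50.5% in DMR2, 44.5% in DMR3, 50.8% in DMR4 and 48.7% in DMR6, with a mean of 47.7% ± 3.21 (SD, n = 5). Heart values were 8.85% in DMR1, 23.3% in DMR2, 16.7% in DMR3, 20.9% in DMR4 and 7.57% in DMR11, with a mean of 15.5% ± 7.07 (SD, n = 5). The tissues did not overlap, although the heart values spread widely. The heart H3K4me1 lists themselves held 32893 to 158541 peaks, and the part of list length in the heart spread was not tested. In 3-factor regions the means were 53.3% in liver and 15.3% in heart, so this liver excess was not particular to members either. In members the difference was 32.2 points (exact permutation test, two-sided, p = 0.00794, adjusted 0.0119). In the 4 animals with both tissues it averaged 30.03 points, with an adjusted p of 0.188 in the paired exact sign-flip test. Its size depended on how regions were built and overlap was counted. It ran from 11.1 points with regions rebuilt from 200-base summit windows to 55.6 points with an overlap of 1 base. With equal numbers of peaks per library it was 19.8 points.

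H3K4me3, the promoter mark, was found on 15.7% of members in the liver of DMR1 and 22.0% in that of DMR4. In heart it was found on 7.11% in DMR1, 8.44% in DMR2, 8.05% in DMR3, 8.57% in DMR4 and 5.65% in DMR11. In 3-factor regions the means were 20.1% in liver and 12.1% in heart. In members the difference of 11.2 points gave p = 0.0476, which is the smallest this design of 2 against 5 allows (exact permutation test, two-sided, adjusted 0.0476). Leaving out any 1 library ended this call because fewer arrangements were left, with differences between 8.10 and 14.4 points. The call was also lost in the paired exact test, where the difference was 10.97 points in 2 animals (adjusted p = 0.50). Taking only the summit of the strongest factor peak in place of the 50% overlap lowered the difference to 3.31 points (exact permutation test, adjusted p = 0.0952). With regions rebuilt from 200-base summit windows it was 2.76 points.

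**Figure D1:**
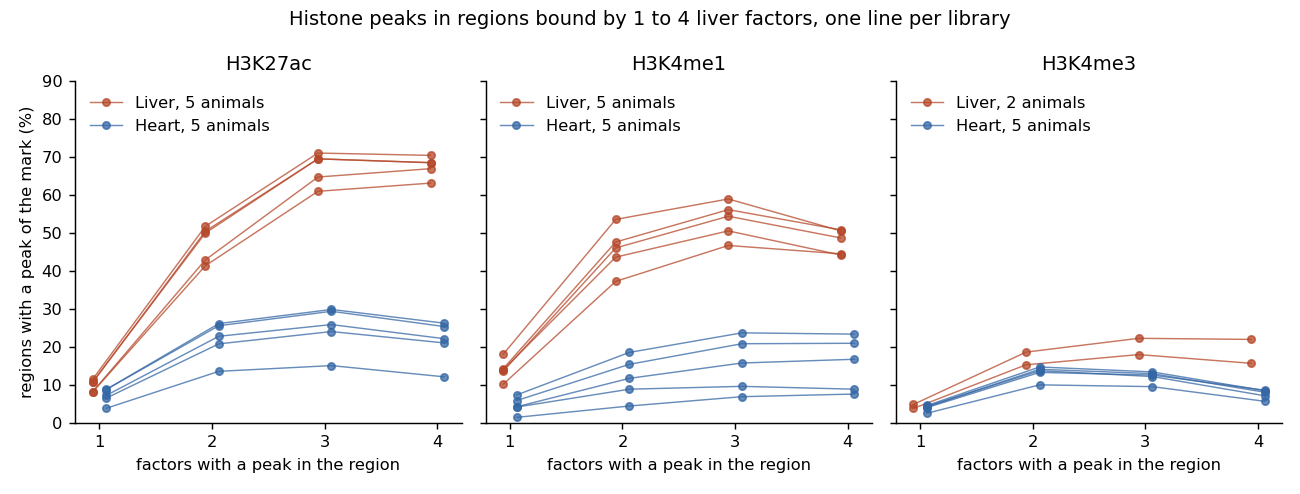
Percent of regions with a histone peak (vertical axis) against the number of factors with a peak in the region (horizontal axis), by mark, with 1 line for each library (liver red, heart blue). Liver H3K27ac lies at 8.13% to 11.5% for 1 factor and at 63.1% to 70.4% for 4 factors, and the liver lines change little or turn down between 3 and 4 factors.

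The share of regions with liver H3K27ac was higher with each added factor up to 3. It averaged 9.83% ± 1.57 for 1 factor, 47.3% ± 4.78 for 2, 67.1% ± 4.20 for 3 and 67.5% ± 2.74 for 4 (SD, n = 5 livers each). The 4-factor share exceeded the 1-factor share by 57.7 points and the 2-factor share by 20.2 points in the mean, the latter falling to 4.84 points without the CEBPA list of DMR4. Against 3-factor regions it differed by 0.35 points (exact sign-flip test, p = 0.625), less than the spread between animals. With 5 livers this exact test cannot go below p = 0.0625, so none of the contrasts by factor number could pass 0.05. Neither could those of liver H3K4me3, where 2 livers allow no p below 0.50. Among regions of 500 to 1000 bases only, the excess over 1-factor regions was 29.4 points and that over 2-factor regions 4.18. With factor peaks of −log10 q of at least 10 the excess over 1-factor regions was 19.4 points, and the differences from the 2-factor and 3-factor shares turned to -8.67 and -18.4 points.

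Liver H3K4me1 was highest in 3-factor regions, at 53.3% ± 4.80, against 47.7% ± 3.21 in 4-factor regions (SD, n = 5). The difference of -5.61 points had the same sign in all 5 livers (exact sign-flip test, p = 0.0625). It kept its sign in 25 of 25 alternatives, between -15.5 and -0.48 points, and was -9.35 without the CEBPA and -9.10 without the FOXA1 list of DMR4. Heart H3K4me3 was found in 13.2% ± 1.84 of 2-factor, 12.1% ± 1.52 of 3-factor and 7.56% ± 1.21 of 4-factor regions (SD, n = 5). The 4-factor share differed by -5.59 points from the 2-factor share and by -4.56 points from the 3-factor share in the mean, each with the smallest p the exact sign-flip test allows, 0.0625. Both kept their sign in 25 of 25 alternatives. Without the CEBPA list of DMR4 the first was -8.94, and without its FOXA1 list the second was -7.18.

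Relative to 1-factor regions, the gain in H3K27ac was larger in liver than in heart. It was not particular to members. In 3-factor regions H3K27ac averaged 67.1% in liver and 24.8% in heart, against 9.83% and 7.01% of 1-factor regions. The ratio of the 4-factor to the 1-factor share was 6.36 in DMR1, 6.14 in DMR2, 7.77 in DMR3, 6.45 in DMR4 and 8.20 in DMR6 for liver, and 2.89 to 3.24 for the 5 hearts. On the log2 scale the means were 2.79 ± 0.19 and 1.62 ± 0.07 (SD, n = 5 each), a difference of 1.17 (exact permutation test, two-sided, p = 0.00794, adjusted over 3 marks 0.0238). With the 4 animals paired the difference was 1.13 (exact sign-flip test, adjusted p = 0.375), and with factor peaks of −log10 q of at least 10 it was 0.72. For H3K4me1 the log2 ratios were 1.79 ± 0.24 in liver and 1.80 in heart in the mean (exact permutation test, p = 0.960), and the sign of this difference changed in 14 of 32 alternatives. It was 0.47 with 1-base overlap and -0.48 with 200-base summit windows (exact permutation test, adjusted p = 0.0476 for each). For H3K4me3 the log2 difference was 1.15 (exact permutation test, p = 0.0476, adjusted 0.0714).

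Histone peaks inside members also ranked differently from those inside 1-factor regions. For each marked region the strongest overlapping peak was ranked, and wider regions can overlap more peaks. The median liver H3K27ac peak of members stood at the 87.5th ± 2.36 percentile of its list by fold (SD, n = 5), 13.0 percentile points above that of 1-factor regions. Its fold was 16.0 to 19.0 by library, against 10.1 to 12.4. Liver H3K4me1 peaks stood 11.5 points higher in members (79.9 against 68.4). In 3-factor regions the liver H3K27ac and H3K4me1 medians were already at the 81.7th and 77.7th percentile. Liver H3K4me3 peaks of members differed by -21.2 points in the mean of both livers, with median folds of 10.1 to 15.1 against 18.7 to 46.5. In heart the members' H3K27ac, H3K4me1 and H3K4me3 peaks differed from those of 1-factor regions by -4.55, -6.67 and -4.32 points. Single libraries moved these values: the H3K4me3 difference was -12.5 without the CEBPA, -9.54 without the FOXA1 and -13.1 without the RXRA list of DMR4, and -6.70 without the FOXA1 list of DMR1. The H3K27ac difference was -8.58 and -9.16 without the CEBPA and FOXA1 lists of DMR4 and -2.94 without the heart list of DMR1. That of H3K4me1 was -10.2 without the FOXA1 list of DMR4 and -1.88 without the heart list of DMR1. By exact sign-flip tests p was 0.0625 for the liver H3K27ac and H3K4me1 ranks and for the heart H3K27ac and H3K4me3 ranks, 0.125 for heart H3K4me1 and 0.50 for liver H3K4me3. The ranks of H3K4me3 in liver and of H3K27ac and H3K4me3 in heart changed sign when only the summit of the strongest factor peak was used, to 3.09, 1.41 and 0.90 points. When every list of a mark was shortened to the same number of peaks, the liver H3K27ac and H3K4me1 differences were 5.97 and 1.75 points. Among regions of 500 to 1000 bases only, they were 8.35 and 8.84 points.

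Calling a mark present when at least 2 libraries of a tissue had it, liver H3K27ac was on 74.0% of members, against a background of 22.9% of all merged regions. The same comparison was 59.0% against 27.4% for liver H3K4me1 and 13.7% against 5.94% for liver H3K4me3. In heart it was 25.3% against 12.5% for H3K27ac, 21.1% against 8.58% for H3K4me1, and 7.96% against 6.29% for H3K4me3. The last share was near its background. The background includes the members and is mostly 1-factor regions, which are narrower.

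From these calls each region was placed in a liver class. Active enhancers (H3K27ac and H3K4me1 without H3K4me3) made up 2866 members (47.0%), and promoters (H3K27ac and H3K4me3) 827 (13.6%). Primed enhancers (H3K4me1 alone) made up 276 (4.52%), other combinations, mostly H3K27ac alone, 834 (13.7%), and 1300 (21.3%) carried no mark. Active enhancers were 48.1%, 34.1% and 6.76% of 3-, 2- and 1-factor regions, and promoters 16.0%, 13.8% and 3.30%. Primed enhancers were 4.52% of 4-factor against 11.998% of 3-factor and 20.07% of 2-factor regions. Unmarked regions were 21.3% of members, 12.1% of 3-factor, 24.5% of 2-factor and 77.7% of 1-factor regions, against a background of 65.4% of all merged regions. Taken alone, DMR1 and DMR4 left 25.95% and 25.7% of members unmarked. The class shares depended on how regions were built and overlap was counted. Of the 4764 regions with all 4 factors rebuilt from 200-base summit windows, 17.3% were active enhancers, 3.799% promoters and 43.6% unmarked. With 1-base overlap these shares of members were 60.1%, 18.1% and 17.5%. With equal numbers of peaks per library active enhancers were 30.3%. Without the CEBPA list of DMR4 32.1% were unmarked, and promoters were 21.6% without the liver H3K4me3 list of DMR1, where 1 library then sufficed for the mark.

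**Figure D2:**
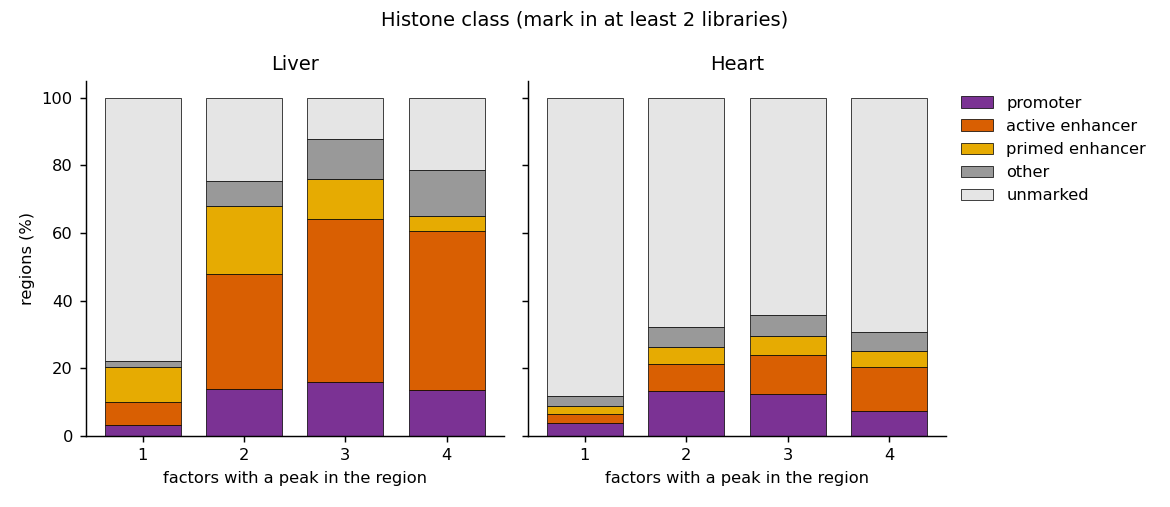
Stacked bars give the percent of regions in each histone class (vertical axis) by number of bound factors (horizontal axis) in liver (left) and heart (right), with a mark counted when at least 2 libraries had it. In liver the active enhancer share is 47.0% with 4 and 48.1% with 3 factors. The unmarked share is 21.3% with 4 and 12.1% with 3 factors. In heart 69.3% of 4-factor and 64.3% of 3-factor regions are unmarked.

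In heart 4229 members (69.3%) were unmarked, 782 (12.8%) were active enhancers and 455 (7.46%) promoters. Of 3-, 2- and 1-factor regions 64.3%, 67.9% and 88.2% were unmarked in heart. Heart active enhancers were 11.4%, 7.86% and 2.63% of these regions, and heart promoters 12.5%, 13.3% and 3.71%. A larger share of liver promoters than of liver active enhancers was marked in heart, as a description. Of the 827 liver promoters, 378 (45.7%) were also heart promoters and 254 (30.7%) were unmarked in heart. Of the 2866 liver active enhancers, 584 (20.4%) were heart active enhancers and 1848 (64.5%) were unmarked in heart.

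H3K27ac calls were mostly all or none across livers. It was present in all 5 livers at 3285 members (53.8%) and in none at 1313 (21.5%). Present in all 5 livers and no heart were 1780 members (29.2%), and present in all 5 livers and all 5 hearts 574. The reverse pattern, all 5 hearts and no liver, was seen at 23 members. A further 1242 had H3K27ac in none of the 10 libraries. These counts were made for members only, so no pattern is shown to be particular to them. H3K27ac in at least 2 livers was found on 75.8% of 3-factor and 74.0% of 4-factor regions.

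**Figure D3:**
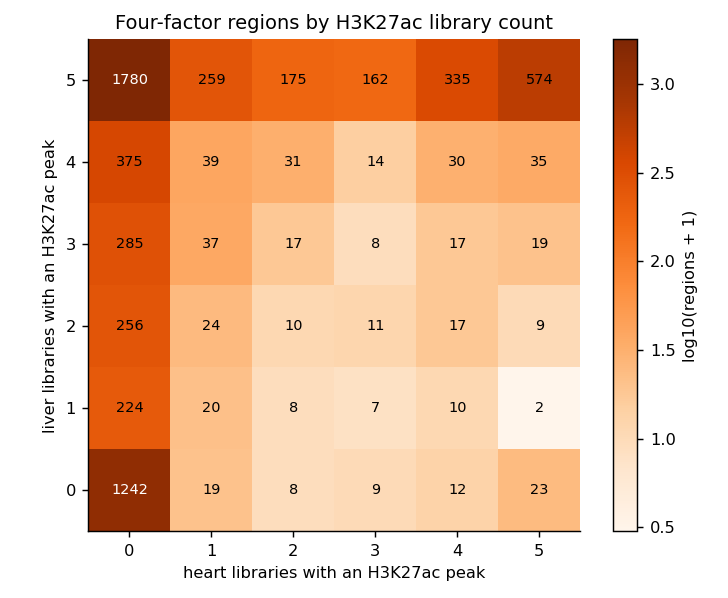
Number of 4-factor regions by how many of the 5 liver libraries (vertical axis) and 5 heart libraries (horizontal axis) had an H3K27ac peak there, with the colour on a log10 scale. The 3 fullest cells hold 1780 regions marked in all livers and no heart, 1242 marked in none and 574 marked in all, and the cell for all hearts and no liver holds 23.

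Among the combinations, H3K27ac shares varied at a given number of factors. CEBPA, HNF4A and RXRA without FOXA1 (6811 regions) were marked in 76.6% ± 4.04 of cases, against 67.5% ± 2.74 of the 4-factor regions (SD, n = 5 livers). Short scaffolds, where no listed peak ends beyond 100 kb (or the mitochondrial sequence), held 1.15% of the first and 14.4% of the second. On longer scaffolds, a subset taken after the data were seen, the shares were 76.7% ± 4.08 and 77.0% ± 3.23. HNF4A with RXRA alone (6147 regions) reached 64.9% ± 4.15. The 3-factor combinations with FOXA1 stood at 57.2% ± 4.97 (CEBPA and RXRA), 63.2% ± 3.08 (HNF4A and RXRA) and 34.2% ± 3.92 (CEBPA and HNF4A, 374 regions). Among single factors the mean share was 18.5% for RXRA, 8.78% for CEBPA, 6.71% for HNF4A and 3.28% for FOXA1. These shares are descriptions, and differences between combinations were not tested.

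A larger share of the members than of the other regions lay on short scaffolds. A scaffold was called short when no peak in any list ended beyond 100 kb on it, and the mitochondrial sequence (MT) was counted with these. Short scaffolds held 878 members (14.4%, Wilson 95% interval 13.5% to 15.3%), against 3.68%, 2.93% and 1.80% of 3-, 2- and 1-factor regions and a background of 2.43% of all merged regions. Intervals on shares of regions cover counting error only. Of the 878, 764 (87.0%) were unmarked in liver, and these were 58.8% of the 1300 unmarked members. On longer scaffolds 536 of 5225 members (10.3%) were unmarked, close to the 9.81% of 3-factor regions there.

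Several shares were therefore taken again on longer scaffolds only, a choice made after the data were seen. Liver H3K27ac was then present at 77.0% ± 3.23 of 4-factor, 68.9% ± 4.35 of 3-factor, 48.1% ± 4.91 of 2-factor and 9.89% ± 1.59 of 1-factor regions (SD, n = 5). The 4-factor share was above the 3-factor share by 8.10 points, where the difference over all scaffolds was 0.35. Heart H3K27ac was present at 24.4% ± 6.52 of 4-factor regions. The liver minus heart difference in H3K27ac was 52.6 points (exact permutation test, adjusted p = 0.0119). Liver H3K4me1 was 54.2% ± 3.66 and 54.6% ± 4.96 with 4 and 3 factors (SD, n = 5). Active enhancers made up 53.6% of 4-factor and 49.3% of 3-factor regions, and primed enhancers 5.07% and 12.2%. Heart H3K4me3 remained lower in 4-factor (8.37% ± 1.39) than in 3-factor regions (12.5% ± 1.57, SD, n = 5).

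HNF6 and TBX5, which the selection did not use, were measured in 1 library each, so their shares have no replicate check. HNF6 had a peak at 38.7% of members (Wilson 95% interval 37.5% to 39.96%), against 20.1%, 11.6% and 2.96% of 3-, 2- and 1-factor regions and a background of 6.18% of all merged regions. Wider regions can overlap more peaks, and members were the widest. The strongest HNF6 peak of each region was ranked by fold in its list. The median percentile was 87.3 for members and 70.8 for 1-factor regions. TBX5, from heart, had a peak at 15.3% of members (14.4% to 16.2%), against 9.08%, 6.70% and 3.67% and a background of 4.73%. Its peaks in members ranked low, with a median percentile of 29.3 against 55.7 in 1-factor regions.

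Both had their highest shares at members without a liver mark. HNF6 was at 28.1% of active enhancers, 25.3% of promoters, 28.6% of primed enhancers and 75.4% of unmarked members. TBX5 was at 10.6%, 16.6%, 7.61% and 30.2% of the same groups. On short scaffolds 83.8% of members had HNF6 and 36.3% had TBX5, against 31.2% and 11.7% on longer scaffolds. Unmarked members on longer scaffolds stood between, with HNF6 at 54.9% and TBX5 at 17.2%. Of the 3-, 2- and 1-factor regions on longer scaffolds, 19.2%, 11.4% and 2.90% had HNF6, and 8.66%, 6.56% and 3.59% had TBX5. A peak in all 7 factor lists was found at 63.3% of members on short and 25.2% on longer scaffolds. The part of scaffold length in these shares was not tested.

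**Figure D4:**
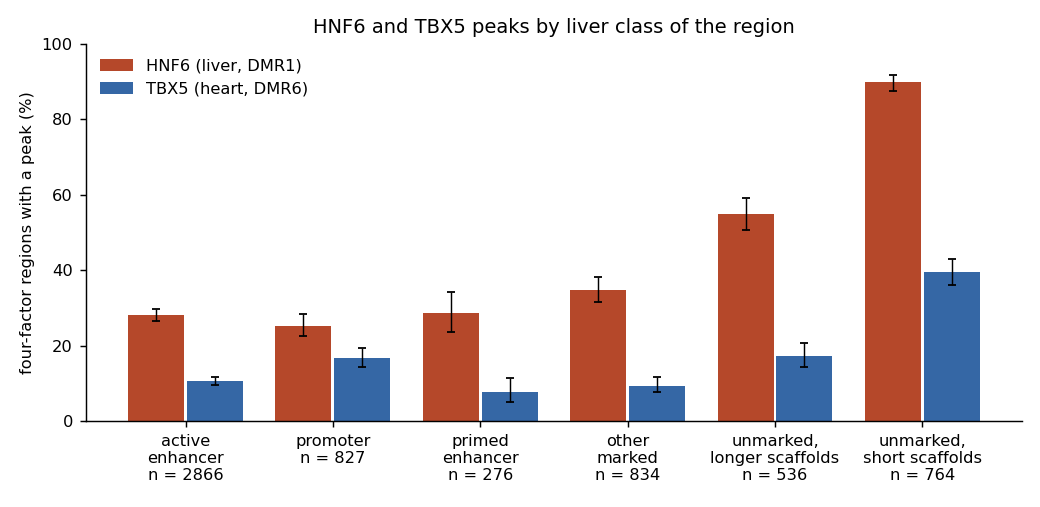
Percent of 4-factor regions with an HNF6 peak (red, liver of DMR1) or a TBX5 peak (blue, heart of DMR6) by liver histone class, with the unmarked class split by scaffold length. Bars start at 0 and whiskers are Wilson 95% intervals, which cover counting error only. HNF6 reaches 89.8% and TBX5 39.4% at unmarked members on short scaffolds, against 28.1% and 10.6% at active enhancers.

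Distances between the summits of the 4 factors are a description. The regions were built by merging overlapping peaks of these same lists, which by itself keeps summits near each other. Among the 4470 members with all 4 factors in DMR4, the nearest set of 4 summits spanned a median of 168 bases (quartiles 92 and 347). By pair of factors the median distance between nearest summits ran from 62.5 bases (HNF4A and RXRA) to 90 bases (CEBPA and HNF4A). In 2- and 3-factor regions holding the same pairs these medians were 75 and 105 bases. For CEBPA and FOXA1 the median was 73 bases in both groups, and for FOXA1 and RXRA 63 and 67 bases. The span had a median of 195 bases at members with a liver mark and 70 bases at those without. On short scaffolds it was 56 bases, and 70.9% of those spans were within 100 bases, against 21.7% on longer scaffolds. Among unmarked members on longer scaffolds the median span was 119 bases (n = 394).

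**Figure D5:**
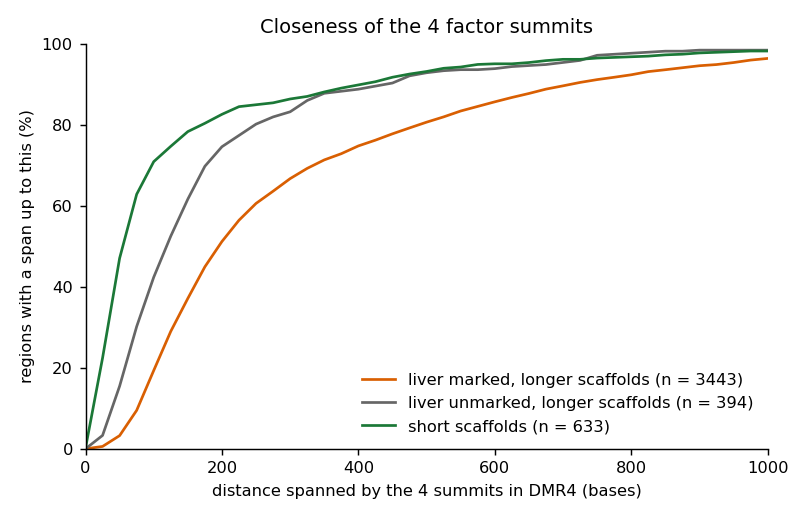
Cumulative percent of 4-factor regions (vertical axis) whose 4 summits in DMR4 fell within a given distance in bases (horizontal axis). The curve for short scaffolds (green, median 56 bases) climbs first, that of unmarked regions on longer scaffolds (grey, median 119) next and that of liver-marked regions on longer scaffolds (orange, median 195) last.

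Members lay nearer to promoter-type peaks than 1-factor regions did. The median distance to the nearest H3K4me3 peak found in both livers was 20436 bases for members, 18869 for 3-factor, 22639 for 2-factor and 76547 for 1-factor regions, among regions with such a peak on their scaffold. Of the members, 875 (14.3%) had none on their scaffold. Of the members with such a peak on their scaffold, 18.9% lay within 1 kb of it and 61.8% beyond 10 kb. These shares were 20.3% and 60.5% for 3-factor, and 18.9% and 63.5% for 2-factor regions. For 1-factor regions they were 5.64% and 82.8%. Another member lay within 10000 bases of 23.5% of members and within 100000 bases of 57.3%. The scaffolds KN122104.1 and KN122054.1 held the most, 78 and 76 members.

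Windows of up to 100000 bases with many members were of several kinds. At KN122008.1:3587360-3677487 there were 10 members, of which 9 were liver active enhancers, 8 had H3K27ac in all 5 livers and all had it in at least 1 heart. At KN121628.1:6716-42681 there were 11, with 3 promoters, 3 active enhancers and 3 unmarked regions. The 13 members at KN123631.1:2785-61150 and the 12 at KN125055.1:2720-51110 were all unmarked in liver and all had an HNF6 peak. At KN122831.1:431924-506641 and KN122898.1:684691-717243 there were 9 members each, all unmarked in liver. At the second of these all but 1 had H3K27ac in at least 1 heart. Coordinates are those of the deposited lists, whose histone files name the build DMR_v1.0. No gene annotation or sequence of that build was used here, so the regions are given without gene names or sequences.

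The 5 members with the highest mean factor percentile were all on short scaffolds and unmarked in liver. They do not stand for all members there. The median of the highest factor fold was 8.30 at members on short scaffolds and 24.3 on longer scaffolds. Of the 123 members with a peak of fold 100 or more, 37 lay on short scaffolds. At KN122540.1:4054-5832 the folds were 541 for CEBPA in DMR1 and 421 in DMR4, 767 and 760 for FOXA1, 605 for HNF4A, and 640 and 453 for RXRA. HNF6 there had a fold of 488. At KN121412.1:1-731 the factor folds were 405 to 721 and HNF6 588, and at KN115038.1:1-500 they were 339 to 552 and HNF6 387. KN120755.1:21542-22533 and KN115267.1:146-1152 had HNF6 folds of 249 and 247. The choice of these 5 fixes that their factor folds are high, while HNF6 and the histone lists played no part in it. No liver list had a histone peak at any of the 5. The furthest peak end on these scaffolds was 500 to 26812 bases. The lists hold no reads, so signal in a control without antibody was not checked at these regions. Whether the folds at these and other members on short scaffolds or MT reflect binding of the factors was not tested.

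Of the 1457 members with H3K27ac in all 5 livers and no histone peak in any heart, the 3 with the highest mean liver H3K27ac fold all carried H3K4me3 in both livers. At KN123095.1:6643547-6645150 H3K27ac fold was 65.7 in DMR1, 75.9 in DMR2, 49.1 in DMR3, 66.3 in DMR4 and 79.4 in DMR6 (67.3 ± 11.8, SD, n = 5). HNF4A had a fold of 26.8 there, RXRA 19.3 and CEBPA 18.2 in DMR4, and FOXA1 4.52. At KN124375.1:2247567-2249135 the H3K27ac fold was 66.1 ± 14.6, with FOXA1 found only in DMR1. At KN121628.1:33481-34693 it was 64.2 ± 26.8 (SD, n = 5 each).

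Of the 292 members with H3K4me3 in both livers and all 5 hearts, KN124710.1:442619-444499 had the highest mean liver H3K27ac fold, 90.5 ± 47.9, with values of 29.3 in DMR2 and 138 in DMR3 and DMR4. KN122233.1:1136308-1139101 had 80.7 ± 22.9 and KN122596.1:2831867-2832909 had 76.3 ± 25.3 (SD, n = 5 each). HNF4A had a fold of 50.5 at KN122233.1:1136308-1139101, and RXRA 37.1 in DMR4. No liver list of any mark had a peak at 1105 members, of which 752 lay on short scaffolds. The counts of 1457, 292 and 1105 were made for members only, so none is shown to be particular to them. By the rule of at least 2 libraries, 21.3% of members, 12.1% of 3-factor regions and 65.4% of all merged regions were unmarked in liver.

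The widest members were KN122831.1:460192-479110, of 18919 bases and 23 merged peaks, and MT:60-16372, of 16313 bases and 31 merged peaks. The first had no peak in any liver histone list, lacked all 3 DMR1 lists, and had folds of 80.5 for FOXA1 and 44.9 for RXRA in DMR4. On the mitochondrial sequence RXRA had a fold of 801 in DMR4 and 18.1 in DMR1, the second highest fold of any member.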

How the data were processed

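The deposited files are 1 peak list per library in narrowPeak form, called by the authors with MACS2, per the submitters' processing notes. No source used here names the aligner, the read filters or any tool version. Column 7 of the deposited lists is a fold (linear ratio) over background, and column 9 is a −log10 q-value, both as the authors' caller wrote them. Files of the factor libraries name the species only, and their scaffold names match those of the DMR_v1.0 lists. The lists give no read counts, so depth per library is unknown. List length stood in for it: liver lists held 78131 to 114466 (H3K27ac), 130602 to 165394 (H3K4me1) and 28820 to 35216 (H3K4me3) peaks, heart lists 51446 to 139112, 32893 to 158541 and 20803 to 53676. A region with no listed peak may hold signal under the calling threshold, and no limit is given for a share of 0.

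In all, 36 lists were used, 27 of them histone lists. Regions were rebuilt from the factor lists, a mark was called by overlap of at least 50% of the shorter interval, and libraries, not regions, were the replicates. Tissues were compared by exact permutation tests and region classes by exact sign-flip tests over libraries, with Benjamini-Hochberg adjustment within each family (Python 3.11.15, NumPy 2.4.6, pandas 2.3.3, SciPy 1.17.1). Replicate numbers in the labels name animals, so liver and heart were paired in the 4 animals that had both. The functions were tested on simulated lists. No pair of lists was a duplicate: over 54 pairs at most 0.128% of intervals were identical. The lists differ in length, and an alternative took equal numbers of peaks per library.

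The members, groups and tests were chosen with earlier results of these data known. Named regions are the 5 with the highest mean factor percentile, the 3 with the highest mean liver H3K27ac fold among liver-marked members without heart peaks and among those with H3K4me3 in all livers and hearts, the 3 highest-ranked without a liver mark (also the first 3 of the 5), and the 2 widest. Dense windows and combinations were chosen after their values were seen. One sample whose title and organism name different species was left out. No sequence, gene or motif was looked up, and tissue identity was not checked against marker genes, because no genome or annotation of this build was used here.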

Additional observations from a re-analysis of the deposited data

Results flagged for a closer look

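The log2 ratio of the 4-factor to the 1-factor share of H3K27ac differed between the tissues, by 1.17 (liver minus heart, exact permutation test, two-sided, p = 0.00794, adjusted over 3 marks 0.0238). The ratio was higher in every liver than in any heart. In 3-factor regions H3K27ac averaged 67.1% in liver and 24.8% in heart, against 9.83% and 7.01% of 1-factor regions. No library stood apart from the others by Dixon's test in any of 10 checks, made on the share of members marked and on this log2 ratio in each of the 5 groups of 5 libraries.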

How the results depend on the processing

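Over 51 alternatives, 35 results gave 924 recomputed values, of which 722 kept their direction and side of 0.05 or stayed within their spread. The contrasts by factor number cannot pass their tests, so their changes are changes of sign or size only. The lists give no read depth, so a mark missing at a region may lie under the calling threshold. The cause of the changes below was not tested unless the alternative itself removes samples.

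The number of 4-factor regions was 2068 with factor peaks of −log10 q of at least 10, 1874 with CEBPA, FOXA1 and RXRA required in both animals, and 3695 to 5862 without each of the 6 lists of CEBPA, FOXA1 and RXRA in turn. It was 4764 with 200-base summit windows, from which the regions of every class were rebuilt. The liver excess of H3K27ac kept its call in 31 of 32 alternatives, and so did that of H3K4me1.

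With the replicate block (liver and heart of the same animal) no p could reach 0.05, and the differences were 46.2 points for H3K27ac, 30.03 for H3K4me1 and 10.97 for H3K4me3. The paired log2 ratio differences were 1.13 for H3K27ac and 0.13 for H3K4me1. The H3K4me3 tissue difference lost its call within library series (10.3 points), under the strongest summit (3.31) and without single libraries (8.10 to 14.4). The H3K4me3 log2 ratio difference passed 0.05 with factor −log10 q of at least 10 (1.396), with 200-base summit windows (0.55) and with 1-base overlap (1.25).

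For the H3K4me1 log2 ratio the tissue difference was -0.59 with factor −log10 q of at least 10 and -0.48 with 200-base summit windows, both past 0.05. It turned to 0.017 with 3 factors required in both animals, 0.47 with 1-base overlap (adjusted p = 0.0476 by the exact permutation test, so this call went both ways), 0.13 with histone −log10 q of at least 4, 0.53 with equal numbers of peaks, 0.064 at widths of 500 to 1000 bases, 0.033 within library series and 0.0044 on longer scaffolds. Without single libraries it ran from -0.26 to 0.14.

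Changes of sign in the contrasts by factor number follow, in percentage points, 4-factor minus the others. With factor −log10 q of at least 4, liver H3K27ac against 3 factors was -3.33, liver H3K4me1 and H3K4me3 against 2 were -3.91 and -0.011, and heart H3K4me1 against 3 was -0.58. With −log10 q of at least 10, liver H3K27ac was -8.67 against 2 and -18.4 against 3, liver H3K4me1 -3.47 against 1 and -14.96 against 2, and liver H3K4me3 -3.12 against 2. In heart it gave -0.99 for H3K27ac against 1, -1.85 and -4.59 for H3K4me1 against 2 and 3, and -5.93 for H3K4me3 against 1. From DMR4 alone, liver H3K27ac against 3 was -3.06 and H3K4me1 against 2 was -0.99. With 3 factors required in both animals, liver H3K27ac against 3 was -12.1, H3K4me1 and H3K4me3 against 2 were -6.87 and -2.75, heart H3K4me1 against 3 was -3.05 and heart H3K4me3 against 1 was -0.14.

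With 200-base summit windows, liver H3K27ac was -0.71 against 2 and -5.65 against 3, liver H3K4me1 and H3K4me3 against 2 were -17.9 and -7.83, heart H3K4me1 was -1.16 against 2 and -1.98 against 3, and heart H3K4me3 against 1 was -1.11. With 1-base overlap, liver H3K27ac and heart H3K4me1 against 3 were -1.9999 and -1.17, and the heart ranks of H3K27ac and H3K4me1 were 0.14 and 1.42. Under the strongest summit, liver H3K27ac and heart H3K4me1 against 3 were -2.35 and -1.18, and liver H3K4me1 and H3K4me3 against 2 were -14.9 and -5.28. The same setting turned the ranks of liver H3K4me3, heart H3K27ac and heart H3K4me3 to 3.09, 1.41 and 0.90.

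At widths of 500 to 1000 bases, liver H3K27ac against 3 was -5.01, liver H3K4me1 against 2 was -11.9, liver H3K4me3 was -0.42 against 1 and -7.76 against 2, and heart H3K27ac and H3K4me3 against 1 were -1.14 and -3.95. Heart H3K4me1 was -2.694 against 2 and -2.690 against 3. With equal numbers of peaks, liver H3K4me3 against 2 was -1.75. Among regions with a peak in the top 25% of its list, liver H3K4me1 against 2 was -1.05 and H3K4me3 against 3 was 0.17. On longer scaffolds, chosen after seeing the data, heart H3K27ac against 2 was 2.14 and liver H3K4me3 against 3 was 0.69.

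Without each library in turn, liver H3K27ac against 3 ran from -7.97 to 2.36, liver H3K4me1 against 2 from -7.52 to 3.41, and liver H3K4me3 against 2 from -4.08 to 3.34. Heart H3K27ac against 2 ran from -7.14 to 0.86, and heart H3K4me1 from -0.092 to 4.64 against 2 and from -2.96 to 0.45 against 3. Of these 6 lowest values, 5 came without the CEBPA list of DMR4 and 1 without the FOXA1 list of DMR4.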
